A study of Mus musculus with 4 samples.

Results

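The tables of 4 poly(A) RNA-seq libraries listed microRNA (miRNA) hairpins as transcripts of their own, and these hairpin rows served here as a readout of miRNA primary transcripts. A row was taken when its gene name began with Mir and a digit or with Mirlet7, which gave 429 of 26982 rows, with 405 distinct names. The reads behind each row were recovered from its exon length and its RPKM. RPKM is the reads of a row per kilobase and per 1000000 reads summed over all rows of the library. Summed over the 4 libraries, 28 rows held 5 or more reads, 56 held 1 to 4, and 345 held none. The cells were 32Dclone3, a mouse myeloid line grown in serum with interleukin-3 from WEHI medium. Both groups carried a stable viral infection, the control group with the XZ virus and the other with XZ-miR-125b, and each group had 2 libraries (control 1 and 2, miR-125b 1 and 2). Virus supernatants differed between the infections of a condition, so the libraries of a group measure the spread between infected cultures of 1 line, and p-values cover that spread only. Neither the promoter of the vector nor the form of the miR-125b insert is given in the sources used here.

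A miRNA starts as a stretch of a longer primary transcript, which is usually capped and polyadenylated. Drosha and Dgcr8 cut the hairpin out of it in the nucleus, Xpo5 exports the hairpin, Dicer1 trims it to a short duplex, and 1 strand is loaded into an Argonaute protein. Bases 2 to 8 of that strand, the seed, pair with target messages. Libraries of poly(A) RNA do not capture the mature strand or the cut hairpin. Reads in a hairpin row can come from uncut primary transcripts, messages whose exons include the hairpin, or other RNA over the same bases. In bone marrow cells miR-223 and miR-142 are known as abundant miRNAs, and miR-125b as a miRNA of stem and progenitor cells.

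Of the 405 names, 365 matched an entry of RefSeq (GRCm38.p6), as did 26 of the 28 rows with 5 or more reads. Mir715 and Mir685 had no entry. The mature sequences on which the results turn are printed 5′ to 3′ with the seed in capitals. The first 4 are the strands of Mir125b-1, a hairpin of the miRNA that the virus carries, and of hairpins that share its CCCUGAG seed. The miR-125b-5p strand is the same for Mir125b-1 and Mir125b-2.
miR-125b-5p: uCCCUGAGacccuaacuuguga
miR-125b-1-3p: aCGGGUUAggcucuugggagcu
miR-125a-5p: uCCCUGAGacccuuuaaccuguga
miR-351-5p: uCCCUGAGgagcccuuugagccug
The next 4 belong to Mir223 and Mir142, the blood-cell hairpins with the most reads.
miR-223-3p: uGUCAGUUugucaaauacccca
miR-223-5p: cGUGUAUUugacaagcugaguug
miR-142a-3p: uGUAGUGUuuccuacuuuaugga
miR-142a-5p: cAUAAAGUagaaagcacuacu
The strands of Mir25 and Mir92-1 were the only pair among the rows with 5 or more reads that shared a seed, AUUGCAC, and 5 further hairpins with this seed had no read.
miR-25-3p: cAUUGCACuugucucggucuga
miR-92a-3p: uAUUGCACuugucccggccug
The last 5 belong to the hairpins with the most reads among those inside exons of protein-coding messages.
miR-719: aUCUCGGCuacagaaaaauguu
miR-546: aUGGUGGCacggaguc
miR-686: aUUGCUUCccagacggugaaga
miR-671-5p: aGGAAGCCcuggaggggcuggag
miR-678: gUCUCGGUgcaaggacuggagg

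The libraries held 11.2 and 10.4 M reads for control and 12.6 and 11.7 M for miR-125b, summed over all rows. Rows overlap, and with 1 row per gene the sums were 8.42 and 7.73 M for control and 9.48 and 8.82 M for miR-125b. In a row of 77 bases 1 read was worth 1.03 to 1.25 RPKM, so most hairpin values rest on few reads, and 0 reads in 1 library allowed up to 3. Intervals and limits given here cover counting error only. Control 2 stood apart from the other libraries. It held 412 of the 1109 reads of Mir715 and 22 of the 23 reads of Mir685. It was also high in noncoding RNAs, with 37 reads against 2 to 6 in Rpph1 (the RNA of RNase P), 61 against 3 to 7 in Rmrp (the RNA of RNase MRP), and 12821 against 5691 to 5954 in Neat1, a nuclear long noncoding RNA. The part of these differences in the results was not tested. Of 12 myeloid progenitor markers, 11 reached 5 RPKM in every library, among them Mpo, Ctsg and Spi1, and their summed level ran from 1091 to 1984 RPKM, highest in control 2. Csf3r, the receptor of granulocyte colony-stimulating factor, had a mean of 4.27 RPKM. All 5 lymphoid markers found were under 1 RPKM, with Rag1 at 0, and their sum was 0.0642 to 0.421 RPKM. Of 5 erythroid markers 3 were under 1 RPKM (Hbb-b1 at 0), Gata1 had a mean of 14.6 RPKM and Klf1 of 3.91 RPKM. Of 5 stromal and endothelial markers 4 were under 1 RPKM (Col3a1 and Kdr at 0), while Pecam1, which myeloid cells also express, had a mean of 220 RPKM. The summed erythroid markers were lower in both miR-125b libraries, at 9.50 and 20.9 RPKM, than in control 1 (21.3 RPKM) and control 2, which was highest. The summed stromal and endothelial markers overlapped between the groups, at 163 to 290 RPKM. In bulk RNA, fewer cells of a type and less RNA per cell cannot be told apart.

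Whether a hairpin carried reads went with its place in other rows. Of 40 hairpins that shared exon bases with another row on the same strand, 13 (32.5%) had 5 or more reads. Of 134 that lay in an intron on the same strand, 7 (5.22%) did, and of 228 outside any other row, 4 (1.75%) did. Among hairpins whose overlapping row had a mean of at least 1 RPKM, the shares were 12 of 19 (63.2%) for exons and 6 of 77 (7.79%) for introns on the same strand. On the opposite strand, 2 of 7 exonic and 2 of 20 intronic hairpins had 5 or more reads. Use of the strand in counting is not stated, so a hairpin and a row on its opposite strand cannot be told apart. With all positions together, hairpins with more reads were also richer in G and C. The median GC content was 46.9% for 280 hairpins with no read, 51.1% for 50 with 1 to 4 and 53.2% for 25 with 5 or more. For no read and 5 or more, the medians were 51.9% and 54.1% in same-strand exons, and 47.1% and 57.5% in same-strand introns. In opposite-strand exons they were 46.2% and 82.9% (1 hairpin with 5 or more). The order was reversed outside other rows (46.8% and 44.7%, 3 hairpins) and in opposite-strand introns (44.9% and 42.0%, 2 hairpins). These shares are descriptions of 4 libraries together and were not tested.

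**Figure D1:**
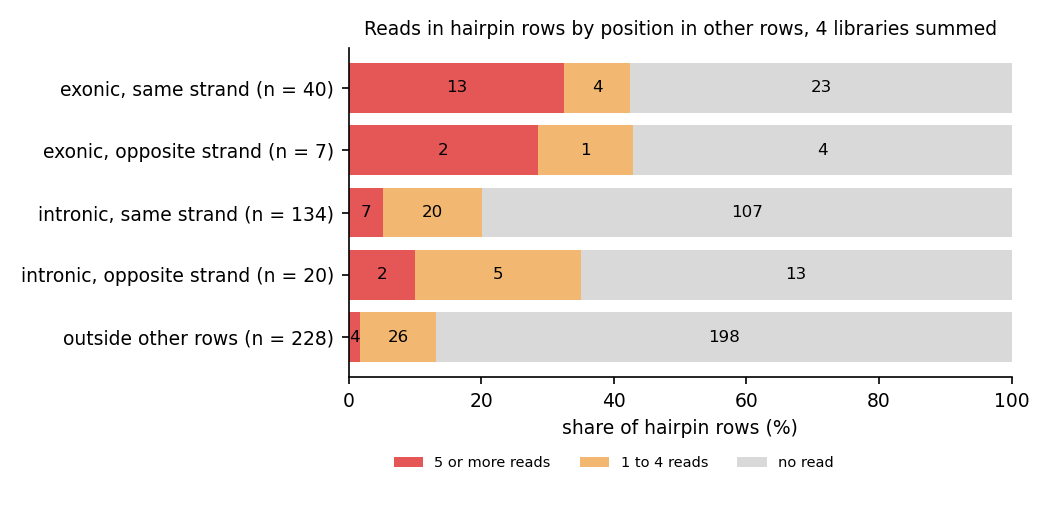
Share of hairpin rows (percent, horizontal axis) with 5 or more reads, 1 to 4 reads or no read over the 4 libraries, by position relative to other rows; the numbers in the bars count rows. Rows with 5 or more reads make up 13 of 40 same-strand exonic hairpins and 7 of 134 same-strand intronic ones.

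The 28 rows differed widely in reads, and 20 of them were read in all 4 libraries. Mir715 alone held 1109 of the 2217 hairpin reads, and Mir719 held 240 (10.8%). At the limit of 5 reads stood Mir199a-1, Mir22 and Mir7-1, and just below it, with 4 reads, Mir21 (1 in each library) and Mir761 (2, 0, 1 and 1 in control 1, control 2, miR-125b 1 and miR-125b 2). The library order stays the same wherever 4 values are given. The 10 rows in the lowest part of the plot of reads by library held 9 reads or fewer in all, and among them the counting interval of the ratio between groups left out 1 for Mir125b-1 and Mir22 alone. A further 9 names stood on several rows each (33 rows in all), and these rows held 0 reads.

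**Figure D2:**
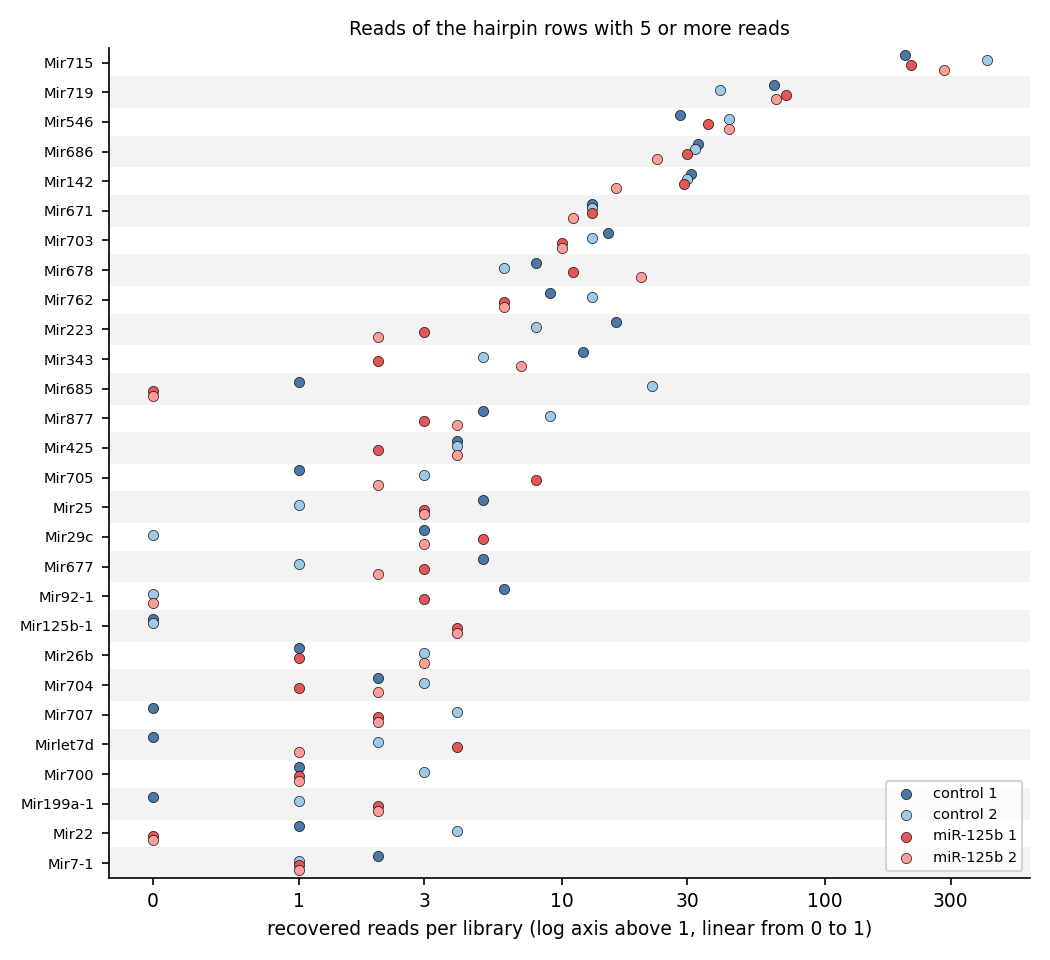
Recovered reads per library (horizontal axis, logarithmic above 1) of the 28 hairpin rows with 5 or more reads in all, with control libraries in blue and miR-125b libraries in red. Mir715 leads with 201 to 412 reads, Mir125b-1 has 0 reads in both controls and 4 in both miR-125b libraries, and the Mir223 points of the 2 groups do not overlap.

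The hairpin of the overexpressed miRNA was read only in the miR-125b libraries. Mir125b-1 (chr9:41390009-41390085, plus strand, mm9) had 0, 0, 4 and 4 reads, or 0, 0, 4.12 and 4.43 RPKM. The groups do not overlap, and against a limit of 3 reads over both control libraries, with its 8 reads taken as exact, the row was at least 2.37-fold higher with miR-125b. The 95% exact counting interval of the ratio, which also counts the error of the 8 reads, began at 1.51. On the log2(RPKM + 1) scale the difference was 2.40 ± 0.21 (SE), with limma's adjusted p at 0.104, the smallest value over all rows tested. This SE comes from the spread between libraries, and the reads were equal within each group. It can therefore understate the error of so few reads. The row passed the filter on low values through the miR-125b libraries alone and so had to differ. It lies in an intron of the 2-exon noncoding row 2610203C20Rik, whose 2578 exon bases held 0 reads in all 4 libraries. Mir100 and Mirlet7a-2, nearby hairpins on chromosome 9, also had none. Reads of the endogenous locus and of the provirus cannot be told apart in these tables. Mir125b-2 (chr16:77646518-77646588) and Mir125a (chr17:17967776-17967843) had 0 reads in all 4 libraries. Mir351, with the same seed, had 1 read in control 1 and 1 in miR-125b 2.

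Hairpins inside exons were read at about the level of the row that contains them. For the 10 hairpins with at least 90% of their bases in a same-strand exon, reads per kilobase of the hairpin divided by those of the containing row had a median of 0.834, and 0.828, 0.697, 0.770 and 0.856 in the 4 libraries. The 2 rows share reads, so the ratio is a description; with the bases of the container outside the hairpin only, the median was 0.828. A read in such a hairpin cannot be told apart from a read of the message.

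**Figure D3:**
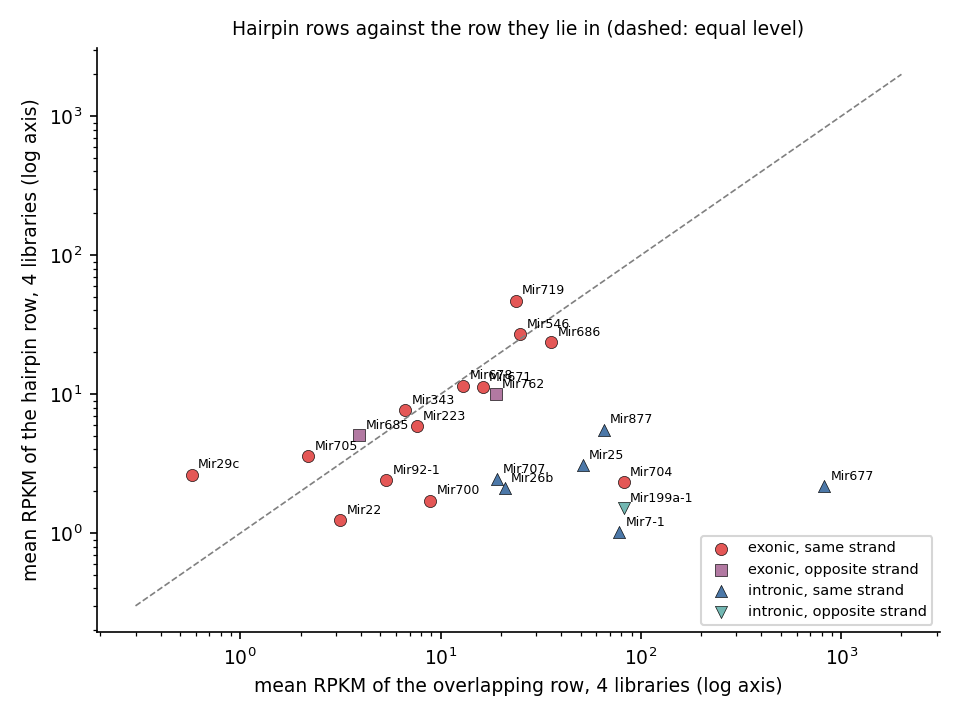
Mean RPKM over 4 libraries of hairpin rows with 5 or more reads (vertical axis, logarithmic) against that of the row they overlap (horizontal axis, logarithmic), with marker shape and colour for position and strand; the dashed line marks equal levels. Most same-strand exonic hairpins lie near the line, and the same-strand intronic ones drawn lie far below it. Mir125b-1 and Mir703 are not drawn, since their overlapping rows held 0 reads.

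Mir719 (chr14:60847643-60847752) shares 105 of its 110 bases with exon 12 of 15 of Nupl1, which encodes a nuclear pore protein. It had 64, 40, 71 and 65 reads (51.8, 35.0, 51.1 and 50.4 RPKM). Control 2 was lowest and the groups overlap. Per kilobase the hairpin held 1.98 times the reads of Nupl1, and the ratio was 1.84, 1.89, 1.91 and 2.34 in the 4 libraries. Nupl1 itself was lowest in control 2, at 18.6 RPKM against 28.2, 26.8 and 21.5.

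Mir546 (chr10:126435496-126435616) lies in the last of 8 exons of Ctdsp2, which encodes a phosphatase of the RNA polymerase II tail. It had 28, 43, 36 and 43 reads, with overlapping groups, and stood at 1.09 times its container. Mir26a-2, another hairpin of the locus, had no read. Mir686 (chr14:55235514-55235622) lies in exon 2 of 3 of Psmb5, which encodes a catalytic subunit of the proteasome. It had 33, 32, 30 and 23 reads, lower in both miR-125b libraries, and stood at 0.666 times Psmb5. Mir671 (chr5:24097932-24098028) lies in the last of 4 exons of Chpf2, an enzyme gene of chondroitin synthesis, and had 13, 13, 13 and 11 reads. Relative to library size these do not overlap (11.9, 12.9, 10.6 and 9.66 RPKM), but they differ by a few reads.

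Mir678 (chr10:75670071-75670154) lies in the last of 11 exons of Prmt2, an arginine methyltransferase gene. It had 8, 6, 11 and 20 reads, higher in both miR-125b libraries, of which the second was highest. Prmt2 did not follow this order, at 9.50, 15.7, 13.0 and 13.7 RPKM. The ratio of hairpin to container thus ran from 0.439 in control 2 to 1.48 in miR-125b 2.

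Other hairpins in exons had few reads. Mir705, in the last of 6 exons of Rab11fip5 (a Rab11 effector gene), had 1, 3, 8 and 2 reads. Mir29c, in the last of 8 exons of the noncoding A330023F24Rik, had 3, 0, 5 and 3 reads and stood at 4.79 times its container, the highest ratio of the 10. Mir22, in exon 2 of 3 of 2210403K04Rik, had 1, 4, 0 and 0 reads and stood at 0.370 times its container, the lowest ratio. Both hairpins are known to be processed from noncoding primary transcripts. Against a limit of 3 reads over both miR-125b libraries, Mir22 was at least 1.88-fold lower with miR-125b, and the exact counting interval, which includes the error of its 5 control reads, allowed as little as 1.03-fold. Mir92-1 lies in Mirhg1, a single-exon noncoding row at the 3′ end of the Mir17 to Mir92-1 cluster, and had 6, 0, 3 and 0 reads. Mirhg1 held 208, 49, 174 and 154 reads, with control 2 again lowest. A further 3 hairpins share only part of their bases with an exon: Mir343 11 bases with Ercc2 (a helicase gene of DNA repair), Mir704 14 bases with Pdia4 (a protein disulfide isomerase gene) and Mir700 44 bases with Rcan3 (a calcineurin regulator gene). Mir343 had 12, 5, 2 and 7 reads, Mir704 2, 3, 1 and 2, and Mir700 1, 3, 1 and 1.

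Hairpins in introns of expressed genes were read far below the exons around them. Mir25 (in Mcm7, a subunit gene of the replicative helicase) had 5, 1, 3 and 3 reads, 6.01% of the reads per kilobase of Mcm7. Mir877, in Abcf1, had 5, 9, 3 and 4 reads (8.20%), lower in both miR-125b libraries. Mir26b, in the phosphatase gene Ctdsp1, had 1, 3, 1 and 3 reads (9.79%), and Mir707, in Akt1s1 of the mTOR pathway, 0, 4, 2 and 2 (12.6%). The lowest shares belonged to the 2 most abundant of these genes. Mir677 stood at 0.265% of Atp5b, which encodes the ATP synthase beta subunit and had a mean of 824 RPKM, with 5, 1, 3 and 2 reads. Mir7-1 stood at 1.29% of Hnrnpk, an RNA-binding protein gene, with 2, 1, 1 and 1 reads.

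On the opposite strand of another row lay 4 hairpins with 5 or more reads. Mir762, opposite exon 1 of Bcl7c (a chromatin remodelling subunit gene), had 9, 13, 6 and 6 reads, lower in both miR-125b libraries. Bcl7c had lower values in the same libraries, at 20.1, 24.8, 15.4 and 14.9 RPKM, and without strand the 2 cannot be told apart. Mir685 shares 88 of its 109 bases with Rpph1 on the opposite strand and had 1, 22, 0 and 0 reads. Nearly all of its reads thus fell in control 2, the library in which Rpph1 was high. Its groups do not overlap, and it was at least 8.64-fold lower with miR-125b against a limit of 3 reads, or 6.48-fold at the near end of the exact counting interval. Both values rest on that library. Mir199a-1, opposite an intron of the dynamin gene Dnm2, had 0, 1, 2 and 2 reads. Mir703, opposite an intron of 1700007G11Rik, had 15, 13, 10 and 10 reads, while that row held 0.

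Outside other rows stood 4 hairpins with 5 or more reads. Mir142 (chr11:87570366-87570429), 3613 bases from Bzrap1, had 31, 30, 29 and 16 reads in a row of 64 bases, or 43.1, 45.2, 35.9 and 21.3 RPKM. The controls were close to each other, the second miR-125b library was lowest, and the groups do not overlap. Per length it was the third highest hairpin row, at a mean of 36.4 RPKM. Mir715 (chr17:39981081-39981190) lies 362772 bases from the nearest other row, Pgk2, and was the highest, with 201, 412, 213 and 283 reads (163, 361, 153 and 219 RPKM). The control libraries differed from each other more than the group means did. Mir715 had no RefSeq entry, and transcripts absent from these rows cannot be seen here. Whether its reads come from a miRNA primary transcript was not tested. Mir425, 1030 bases from Dalrd3, had 4, 4, 2 and 4 reads, and its neighbour Mir191 had 2 in all. Mirlet7d had 0, 2, 4 and 1 reads, and it was the only let-7 row to reach 5.

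Clustered hairpins are known to be cut from shared primary transcripts, and 225 rows fell into 58 clusters with gaps of at most 10 kb. No read fell in 36 of these clusters. Among the 36 stood Mir683-1 with Mir683-2 at chr13:50639995-50640103 and again at chr13:50696341-50696449. Each of these spans is about as long as a single hairpin row, so neither is a cluster of separate hairpins. In the cluster of Mir25, Mir93 and Mir106b the 3 hairpins had 12, 3 and 3 reads. In the Mir17 to Mir92-1 cluster Mir92-1 had 9 reads, Mir17, Mir18 and Mir19a had 1 each, and Mir20a and Mir19b-1 had none. The hairpin nearest the 3′ end was thus the most read, and it is the only hairpin of the cluster wholly inside the Mirhg1 row. The 34 rows of the imprinted Mir379 cluster on chromosome 12 held 1 read in all, and the noncoding rows Mirg and Rian of that domain held 0. A list of 45 hairpins known from blood cells, let-7 rows included, had 44 rows. Of these, 5 had 5 or more reads (Mir142, Mir223, Mir92-1, Mirlet7d and Mir22), 17 had 1 to 4 and 22 had none. Mir155 and Mir150, of activated and lymphoid cells, were among those with none. Mature levels cannot be read from these counts.

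Mir223, the hairpin of a miRNA that accompanies granulocytic maturation, had the largest negative difference among the 25 tested hairpin rows with 5 or more reads. Mir223 (chrX:93438156-93438265, mm9) had 16, 8, 3 and 2 reads, or 13.0, 7.01, 2.16 and 1.55 RPKM. Both control libraries lay above both miR-125b libraries, with means of 9.98 ± 4.20 and 1.86 ± 0.432 RPKM (SD, n = 2 each). From the summed reads this is 5.41-fold lower (95% exact counting interval 2.02 to 18.2). In limma's test over all rows the difference was -1.90 ± 0.30 on the log2(RPKM + 1) scale, with an unadjusted p of 0.000455 and an adjusted p of 0.249. The hairpin lies in the last of the 3 exons of F630028O10Rik, a noncoding row of 2775 exon bases that gives the same transcript with more reads. That row held 509, 196, 174 and 76 reads (16.3, 6.81, 4.97 and 2.33 RPKM). The groups do not overlap there either, though control 2 and miR-125b 1 were closer to each other than the controls were. Its difference was -1.38 ± 0.43 (limma, unadjusted p = 0.0155, adjusted p = 0.464). The result for F630028O10Rik depended on single libraries, with a difference of -1.80 without miR-125b 1 and of -0.96 without miR-125b 2. Mir223 was at -2.05 without miR-125b 1 and -1.74 without miR-125b 2. These fits assume that the lone miR-125b library varies like the controls, so only differences are given here. Over the alternatives with all libraries, limma's adjusted p of Mir223 ran from 0.0313 with the replicate block to 0.554 without a filter. Values of other myeloid genes are given beside Mir223. Of the 12 myeloid progenitor markers, Cebpe, Csf2rb and Spi1 were lower in both miR-125b libraries, Mpo and Elane were higher in both, and 7 overlapped. The groups also did not overlap in 42.8% of all rows tested, so the markers did not stand out by this count. Spi1 (82.6, 127, 80.3 and 69.6 RPKM) and Elane (18.7, 19.9, 37.1 and 22.0 RPKM) were separated narrowly. Cebpe, a transcription factor gene of granulocytic maturation, was at 46.8, 66.2, 24.6 and 21.8 RPKM, and Csf2rb, the shared receptor chain of interleukin-3, at 69.3, 59.9, 33.8 and 50.1 RPKM. Mpo, which encodes the granule enzyme myeloperoxidase, was at 39.1, 54.2, 273 and 105 RPKM. Their part in the values of Mir223 was not tested.

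**Figure D4:**
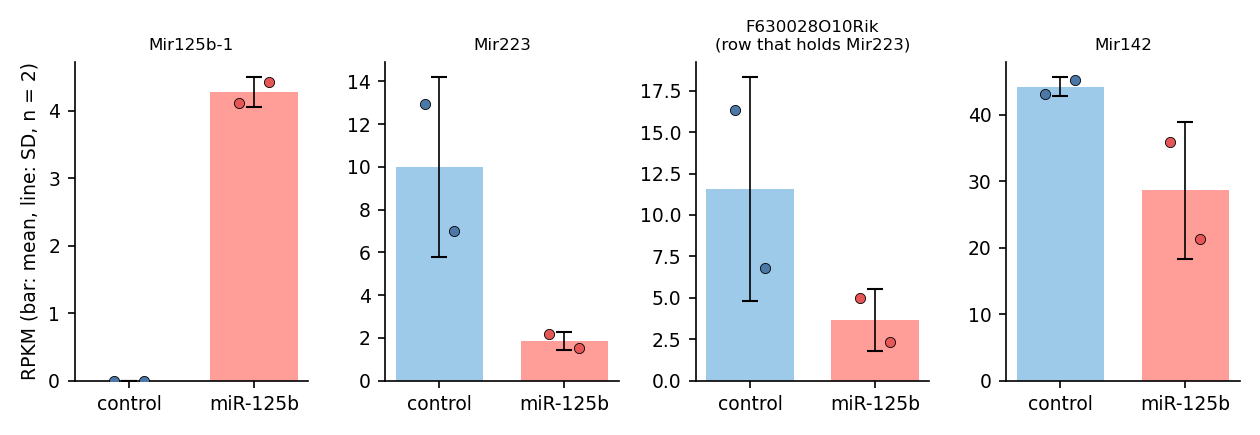
RPKM of Mir125b-1, Mir223, F630028O10Rik (the row that holds Mir223) and Mir142 in control and miR-125b libraries; bars are means, lines are SD (n = 2 each) and points are libraries, on an axis from 0 for each gene. The groups do not overlap in any of the 4, and Mir223 has means of 9.98 and 1.86 RPKM.

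Over all rows tested, limma called 0 of 10310 at an adjusted p under 0.05 (0.0%), and 0 of the 25 hairpin rows that had 5 or more reads and passed the filter of 1 RPKM in at least 2 libraries. Mir685, Mir22 and Mir7-1 did not pass it, and 4 further hairpin rows with fewer reads did (Mir106b, Mir23b, Mir761 and Mir93). Mir125b-1, which had to differ, is left out of the counts that follow. At an unadjusted p under 0.05 stood 8 of the other 24 (6 lower and 2 higher with miR-125b), against 9.38% of all rows tested (5.21% lower and 4.17% higher). The lower ones were Mir223, Mir762, Mir703, Mir877, Mir142 and Mir686, and the higher ones Mir678 and Mir199a-1. With limma-voom on the recovered reads 0 rows were called, and of the 24 only Mir223 had an unadjusted p under 0.05. The groups did not overlap in 12 of the 24, 10 lower and 2 higher, against 42.8% of all rows tested (20.4% lower and 22.3% higher). Of the 24, 15 were lower and 9 higher, with a median of -0.33 on the log2(RPKM + 1) scale, where the median of all rows tested was 0.024.

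**Figure D5:**
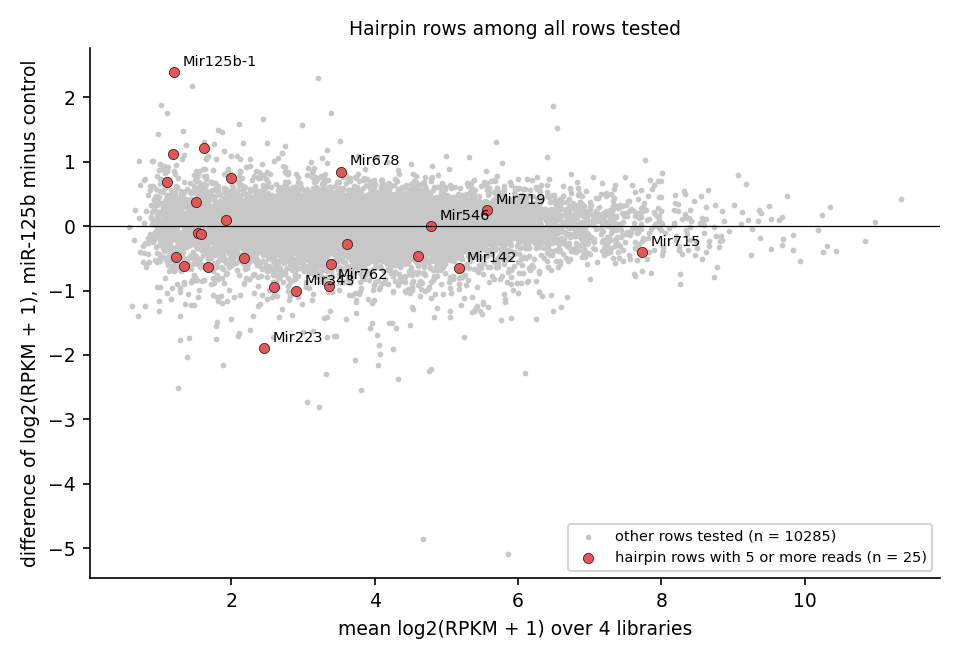
Difference in log2(RPKM + 1), miR-125b minus control (vertical axis), against the mean log2(RPKM + 1) of 4 libraries (horizontal axis) for all rows tested (grey) and the 25 hairpin rows with 5 or more reads (red). Mir125b-1 at 2.40 and Mir223 at -1.90 lie at the edges of the cloud, and most other hairpins lie within it.

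The other differences with an unadjusted p under 0.05 in limma's test were smaller than that of Mir223. Mir762 differed by -0.92 ± 0.24 (limma adjusted p = 0.420), Mir703 by -0.59 ± 0.17 (0.464), Mir877 by -0.94 ± 0.31 (0.473), Mir142 by -0.65 ± 0.27 (0.524) and Mir686 by -0.46 ± 0.19 (0.527). Single libraries set the size of several of these. Mir142 was at -0.29 without miR-125b 2 and -1.02 without miR-125b 1, and Mir877 at -0.52 without control 2. Mir762 was at -0.62 without control 2 and -1.22 without control 1. The summed reads of Mir142 gave a ratio of miR-125b to control of 0.654 (95% exact counting interval 0.435 to 0.978). The same interval included 1 for Mir762 (0.218 to 1.02), Mir703 (0.338 to 1.17), Mir877 (0.152 to 1.17) and Mir686 (0.494 to 1.06). Mir678 differed by 0.85 ± 0.31 (adjusted p = 0.505 in limma's test), with a ratio of 1.964 (1.015 to 3.996), and it was at 0.40 without miR-125b 2 and 1.30 without miR-125b 1. Mir719, Mir546, Mir671 and Mir715 had differences of 0.25, 0.0067, -0.27 and -0.40. Without control 2 the difference of Mir715 was 0.17, so its direction rested on that library. The counting interval of the ratio left out 1 for 7 of the 28 rows, 5 lower (Mir715, Mir142, Mir223, Mir685 and Mir22) and 2 higher (Mir678 and Mir125b-1). This interval pools the libraries of a group and leaves out the spread between them. It was not computed for other rows, so the count has no share over all rows beside it. Of the lower ones, Mir715, Mir685 and Mir22 rested on control 2, which held 4 of the 5 reads of Mir22.

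All hairpin rows together took 43.1, 68.1, 38.4 and 46.1 reads per 1000000. The groups overlap, with means of 55.6 ± 17.7 and 42.3 ± 5.43 (SD, n = 2 each). An exact permutation test (two-sided) gave p = 0.667, but with 2 libraries against 2 it cannot go below 0.333 and so could not have shown a difference. Leaving out Mir715 gave 25.2, 28.4, 21.6 and 22.0, which no longer overlap (exact permutation p = 0.333, the smallest possible). The groups also did not overlap in 42.8% of all rows tested. Hairpins that share exon bases with no other row gave 25.3, 49.2, 23.1 and 30.2, which overlap. Counted per 1000000 reads over 1 row per gene, all hairpin rows gave 57.5, 91.5, 51.2 and 61.3, which also overlap.

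Among the rows that hold the hairpins, F630028O10Rik had the smallest p. Of 15 rows sharing exon bases with a named hairpin, 14 were tested, limma called 0, and 2 (14.3%, against 9.38% of all rows tested) had an unadjusted p under 0.05. These were F630028O10Rik and Bcl7c (-0.53 ± 0.19), both lower with miR-125b. Pdia4, whose intron holds most of Mir704, was at 80.0, 49.3, 111 and 87.8 RPKM, higher in both miR-125b libraries.

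Among the genes that make or use miRNAs, Dicer1 had the smallest p. Of 22 listed genes 19 were tested, and limma called 0, as it did among all rows. At an unadjusted p under 0.05 stood 0 of the 19, against 9.38% of all rows tested, with 7 lower and 12 higher and a median of 0.058. The smallest adjusted p was 0.616. It belonged to Dicer1, at 11.9, 9.28, 12.9 and 14.1 RPKM, higher in both miR-125b libraries by 0.33 ± 0.19. The Argonaute genes Eif2c1 and Eif2c3 differed by 0.28 and 0.31, and Tnrc6a, whose protein binds Argonaute, by -0.22. Rnasen, the gene of Drosha, had 25.6, 20.4, 24.2 and 23.5 RPKM, lowest in control 2. The let-7 inhibitors Lin28a and Lin28b had 0 reads in all 4 libraries.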

How the data were processed

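The authors deposited 1 table per library with 26982 RefSeq transcripts, their exons and RPKM values, on mm9 per the submitters' processing notes. Their aligner and counter, and any use of strand, were not given in the sources used here. Tables were joined on transcript and position, since that of control 2 lists rows in another order. RPKM multiplied by exon length and total reads gave whole reads in 100.0% of rows (tolerance 0.001 reads). Positions came from the exons in the tables. The row with the longest exons was kept for each of 21506 genes, and rows at 1 RPKM or more in at least 2 libraries (10310) were tested with limma 3.58.1 (R 4.3.3, trended prior, two-sided, Benjamini-Hochberg) on log2(RPKM + 1), which understates changes of low rows. With 2 libraries a group the residual had 2 degrees of freedom. The SE came from the spread between libraries, so in rows of few reads it can be smaller than the counting error. limma-voom, other pseudocounts, filters and scalings, a replicate block and leaving out each library were alternatives. Scripts (Python 3.11.15, scipy 1.17.1) were tested on simulated data. Rows with 5 or more reads were named, those with 20 or more with a value in every library, also each one's overlapping row and the 4 machinery genes of smallest p. Mir26a-2, Mir191, Rnasen, the myeloid markers given beside Mir223 and the noncoding RNAs high in control 2 were chosen after their values were seen. Single values of some markers are not reported here. Members, lists and tests were chosen with earlier results of these data known.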

Additional observations from a re-analysis of the deposited data

How the results depend on the processing

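Counts of calls moved with single libraries and with the block. limma called 0 hairpin rows with all libraries and 0 to 2 with 1 left out, namely Mir223 without miR-125b replicate 1, and Mir223 and Mir343 (0.0254) without miR-125b replicate 2. With the replicate block 2 were called, Mir125b-1 (adjusted p = 0.0134, 0.0134 to 0.401 over its alternatives) and Mir223 (0.0313, 0.000394 to 0.554). Over all rows 108 were called without miR-125b replicate 1, 24 when replicate 2 was out instead, 1 without control 2 and 12 with the block. The prior degrees of freedom rose from 4.63 to 50.6 and 36.7 when a miR-125b library was left out, where the lone library is assumed to vary like the controls. Same-numbered libraries did not deviate together (r = 0.0208), so no pairing was established. Mir125b-1, called with the block, passed the filter through the miR-125b libraries alone and so had to differ. Containing rows called were 0, and 0 to 1 without a library (F630028O10Rik). Among single rows 289 of 303 alternatives gave the same reading, 6 passed the threshold and 8 reversed. Reversed were Mir715 (0.17) and Mir719 (-0.029) without control replicate 2, Mir546 when centred on the median (-0.0018), without control replicate 1 (-0.35) or miR-125b replicate 2 (-0.17), Nupl1 without control replicate 2 (-0.22) or miR-125b replicate 1 (-0.087), and Mirhg1 without control replicate 2 (-0.40). With libraries left out, Mir715 ran from -0.97 to 0.17, Mir719 from -0.029 to 0.52, Mir546 from -0.35 to 0.36, Nupl1 from -0.22 to 0.35 and Mirhg1 from -0.40 to 1.16. The cause was not tested. Mir125b-1 had no value without either miR-125b library, at a mean of 5 RPKM or at 10 reads in all.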
